A study of Mus musculus with 4 samples.

Results

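The genes described here are those whose symbol is Kif followed by a digit, which encode most of the kinesins of the mouse. On the arrays, 41 probe sets (called probes here) carried exactly 1 such symbol. Keeping for each gene the probe with the highest mean over all arrays left 38 genes of the 22180 tested. They were sorted by their known roles into 12 mitotic kinesins, 13 transport kinesins, 6 kinesins of the cilium and of Hedgehog signalling, 6 other kinesins and 1 pseudogene, Kif4-ps. The comparison asked whether the mitotic and the transport kinesins differed between cells with a hairpin against Ldha and control cells.

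All RNA came from 4T1, a mouse mammary carcinoma cell line, grown in vitro for 24 hours in complete RPMI medium. The control cells carried a scrambled short hairpin RNA (scramble, 2 arrays). The others carried a hairpin against Ldha (shLDHA, 2 arrays), the gene of lactate dehydrogenase A, were selected with puromycin at 10 µg/ml and were used as a mixed population. Selection is described for the knockdown cells only, so selection and knockdown cannot be told apart here. From each sample 400 ng of total RNA was labelled with biotin for Affymetrix whole-transcript arrays. Nothing in the labels states that the replicates were separate cultures. The p-values therefore cover array-to-array spread alone, possibly of technical origin.

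Kinesins are motor proteins that use ATP to walk along microtubules or to shorten them at their ends. Mitotic kinesins build the spindle, move chromosomes and complete cytokinesis, and their genes are mostly switched on from S phase to mitosis. Transport kinesins carry vesicles, mitochondria and other cargo, mostly towards the cell periphery, and are made in non-dividing cells as well, several of them mainly in neurons. Other kinesins set the length of cilia or pass on Hedgehog signals there.

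As promoters of many mitotic genes hold a cell cycle element named CHR, the DNA around the starts of the kinesin genes was compared first. The CHR was searched as TTTGAA or TTTAAA and the CCAAT box as CCAAT, on both strands, in windows of 300 bases (250 before and 50 after a RefSeq start, GRCm38.p6). Overlapping matches were each counted, and TTTAAA, its own reverse complement, once. The 6 stretches below run from 50 bases before to 30 bases after the start, 5′ to 3′ on the strand of the gene, and capitals mark a CHR or a CCAAT box on either strand. They are the 4 mitotic and 2 transport kinesins with the smallest p among those whose window held the first base of the gene.
Kif11: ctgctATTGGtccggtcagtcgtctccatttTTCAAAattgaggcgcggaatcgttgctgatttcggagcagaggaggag
Kif22: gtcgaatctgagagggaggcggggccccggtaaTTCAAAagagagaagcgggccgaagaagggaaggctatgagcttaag
Kif18a: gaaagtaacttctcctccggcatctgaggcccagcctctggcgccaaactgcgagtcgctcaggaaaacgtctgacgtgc
Kif20b: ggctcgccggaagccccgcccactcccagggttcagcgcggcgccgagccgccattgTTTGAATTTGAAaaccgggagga
Kif1c: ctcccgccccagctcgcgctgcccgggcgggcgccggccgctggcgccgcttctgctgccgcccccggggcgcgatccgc
Kif1b: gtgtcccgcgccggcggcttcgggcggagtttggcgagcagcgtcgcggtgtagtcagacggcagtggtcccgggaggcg
The stretches lie at chr19:37376332-37376411 (Kif11, plus strand), chr7:127042391-127042470 (Kif22, minus), chr2:109280688-109280767 (Kif18a, plus), chr19:34922308-34922387 (Kif20b, plus), chr11:70700498-70700577 (Kif1c, plus) and chr4:149307669-149307748 (Kif1b, minus, 1 of its 2 windows). Kif11 and Kif22 hold a CHR just before the start and Kif20b holds a pair just after it, while Kif18a, Kif1c and Kif1b hold none in their windows.

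Over all mitotic kinesins with a window, 9 of 11 windows held a CHR (81.8%), against 1 of 12 windows of transport kinesins (8.33%) and 27.6% of all 32851 promoters in the table. A CCAAT box stood in 7 of the 11 mitotic windows (63.6%), in 4 of the 12 transport windows (33.3%) and in 37.4% of all promoters. Each mitotic gene had 1 window, while the transport genes Kif1a and Kif1b had 2 each. The windows of Kif1b overlap and hold the same CCAAT boxes, so that gene counts more than once. Both elements together were in 6 mitotic and 0 transport windows and in 10.7% of all promoters. Some windows start inside the gene, those of Kif2c and Kif14 among them. Of windows that held the first base of the gene, 7 of 9 mitotic and 0 of 10 transport windows had a CHR, against 28.3% of 25090. In each of these 7 the match began within 20 bases of the start, a span chosen after the positions were seen, which 3.51% of those 25090 promoters shared. The 7 were Kif4, Kif11, Kif15, Kif18b, Kif20b, Kif22 and Kif23. Base composition differed too, with a median GC content of 59.7% in the mitotic windows, 68.2% in the transport windows and 52.7% in all promoters. Its part in these counts was not tested. A match is a stretch of letters and not a measured binding site. No window was matched for Kif4-ps, Kif5a, Kif5b, Kif13b, Kif19a, Kif20a and Kif21b.

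The arrays were alike in overall level, with medians over all probes from 3.87 to 3.90 on the log2 scale, and correlated across genes at r = 0.997 within both groups and at r = 0.993 between groups. Ldha went from 6.69 and 6.96 in the controls to 6.31 and 6.15 with the hairpin, a log2 change of -0.59 (SE 0.12, limma adjusted p = 0.0390), so the targeted transcript was lower in the libraries labelled shLDHA. Of the markers of the labelled cell type, Epcam, Cdh1, Krt8, Krt18 and Krt19 read between 6.43 and 10.50 on every array, and Epcam and Krt8 were higher in shLDHA by 0.53 and 0.47. Cdh1 (0.04), Krt18 (0.24) and Krt19 (-0.33, both shLDHA arrays below both scramble arrays) did not pass. None of 4 endothelial, 5 fibroblast and 4 leukocyte markers passed the test. Of these, 11 stayed below 4.24 in both groups, the 95th percentile of the brighter group mean over 1105 olfactory receptor genes, which this cell line should not express, and the exceptions were Pdgfra and Cd14. Genes below that level in both groups are called dim here, because signals near the floor of an array are compressed.

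Mitotic kinesins rose in shLDHA. By limma with Benjamini-Hochberg adjustment over all genes and a threshold of 0.05, 9 of the 12 were higher and 0 lower, beside 6.36% of all genes tested that passed in either direction (3.37% higher, 2.99% lower). At an unadjusted p under 0.05, 11 were higher and 0 lower, where 11.3% of all genes were higher and 10.2% lower. The median log2 change of the 12 was 0.54, beside 0.01 over all genes. In 11 of them both shLDHA arrays lay above both scramble arrays, as they did for 26.2% of all genes. The exception was Kif2b, which was dim. Of 13 transport kinesins, 0 were higher and 2 lower by the limma test, and at an unadjusted p under 0.05 there were 2 higher and 3 lower of 13, beside the same 11.3% and 10.2% of all genes. Their median log2 change was -0.11, with both shLDHA arrays above both scramble arrays in 4 and below them in 7, the latter against 24.0% of all genes. The difference between both lists is described by these counts and medians and was not tested as such.

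**Figure D1:**
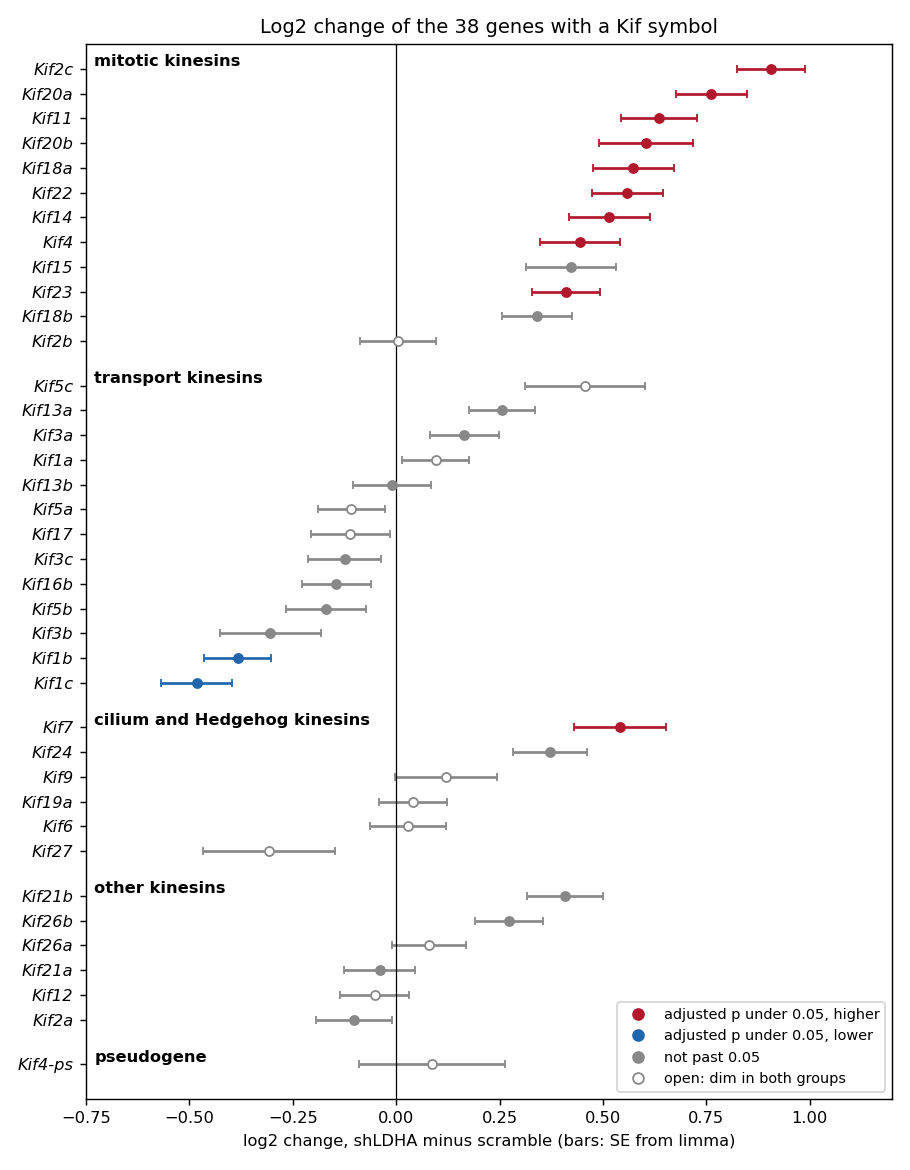
Log2 change (shLDHA minus scramble, horizontal axis) of each of the 38 genes by role, with the SE of the limma fit as bars, red for genes higher and blue for genes lower at an adjusted p under 0.05, and open points for dim genes. The 12 mitotic kinesins run from 0.00 to 0.91 and the 13 transport kinesins from -0.48 to 0.46.

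Array by array, the median of the mitotic list was higher on both shLDHA arrays, while the log2 changes of its genes ran from 0.00 to 0.91. Set against each gene's mean over the 4 arrays, the median deviation of the 12 genes was -0.22 and -0.33 for scramble, then 0.32 and 0.20 for shLDHA. The same median of the 13 transport genes was -0.01 and 0.05 for scramble, then 0.00 and -0.08 for shLDHA. These medians were thus apart between the groups for the first list and close together for the second. A median over genes can hide opposite shifts. Of the 13 transport genes, 4 had both shLDHA arrays above both scramble arrays and 7 had them below, beside 26.2% and 24.0% of all genes. In bulk RNA, more cells in mitosis and more kinesin RNA per dividing cell cannot be told apart.

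Among the motors that shape the spindle, Kif2c showed the widest gap between the groups. It encodes a kinesin of family 13 that takes microtubules apart at centromeres. Kif2c stood at 7.40 and 7.38 in the controls against 8.26 and 8.33 in shLDHA, and rose 1.87-fold (log2 change 0.91, SE 0.08, limma adjusted p = 0.00326). The groups lay far apart compared with the spread within either, whose SDs were 0.01 and 0.05 (n = 2 each). Of the other 3 genes of its family, Kif24 (described with the cilium genes) changed by 0.37 (SE 0.09) without passing. Kif2a, which acts at spindle poles and in growing neurites, changed by -0.10 (SE 0.09) with overlapping arrays. Kif2a was sorted with the other kinesins, so the counts and median of the mitotic list leave it out. Kif2b, a form best known from testis, changed by 0.00 (SE 0.09).

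Kif11 encodes the motor that pushes the spindle poles apart, the target of spindle poisons such as monastrol. It read 8.59 and 8.52 in scramble and 9.26 and 9.12 in shLDHA, a 1.55-fold rise (log2 change 0.64, SE 0.09, limma adjusted p = 0.0146). Kif15 can hold the poles apart when Kif11 is blocked. Its values were 8.31 and 8.18 in scramble and 8.79 and 8.55 in shLDHA. These groups did not overlap either, yet with a wider spread the log2 change of 0.42 (SE 0.11) did not pass (limma adjusted p = 0.0785).

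The motors that act on chromosomes rose as well. Kif22 and Kif4 are chromokinesins, which bind chromosome arms and push them towards the spindle equator. Kif22 went from 6.93 and 6.84 in scramble to 7.42 and 7.47 in shLDHA, 1.47-fold higher (limma adjusted p = 0.0167). Kif4 read 7.12 and 7.17 in scramble and 7.68 and 7.50 in shLDHA, 1.36-fold higher (limma adjusted p = 0.0476), the weakest call of the mitotic list. The pseudogene Kif4-ps may share sequence with Kif4, so that their probes could pick up the same RNA. Its own probe was dim (2.59 and 2.91 in scramble, 2.60 and 3.07 in shLDHA), with no shift between the groups beyond its spread.

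Kif18a and Kif18b belong to family 8, whose members work at the plus ends of microtubules. Kif18a, which keeps chromosomes steady at the spindle equator, read 7.22 and 7.11 in scramble and 7.82 and 7.66 in shLDHA, 1.49-fold higher (limma adjusted p = 0.0236). Kif18b, which limits the astral microtubules, went from 7.68 and 7.58 to 7.97 and 7.97. The shLDHA values of Kif18b were nearly equal, at an SD of 0.00 (n = 2), but the log2 change of 0.34 (SE 0.09) did not pass (limma adjusted p = 0.0730).

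The motors of the central spindle and cytokinesis all passed. Kif20a brings the chromosomal passenger complex to the central spindle. It read 7.66 and 7.74 in scramble and 8.43 and 8.49 in shLDHA, a 1.70-fold rise (limma adjusted p = 0.00602). Kif20b, of the same family 6 and also at work in cytokinesis, read 7.98 and 7.79 in scramble and 8.60 and 8.38 in shLDHA, 1.52-fold higher (limma adjusted p = 0.0321). The spread within the groups was wider for Kif20b (SD 0.13 and 0.16, n = 2 each) than for Kif20a (SD 0.05 and 0.05, n = 2 each).

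Kif23 forms the centralspindlin complex with Racgap1. It read 8.57 and 8.51 in scramble and 8.96 and 8.94 in shLDHA, 1.33-fold higher (limma adjusted p = 0.0382). Kif14, which binds Prc1 and citron kinase at the midbody, read 6.44 and 6.25 in scramble and 6.90 and 6.82 in shLDHA, 1.43-fold higher (limma adjusted p = 0.0327). The other members of its family 3 carry cargo and are described with the transport kinesins.

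**Figure D2:**
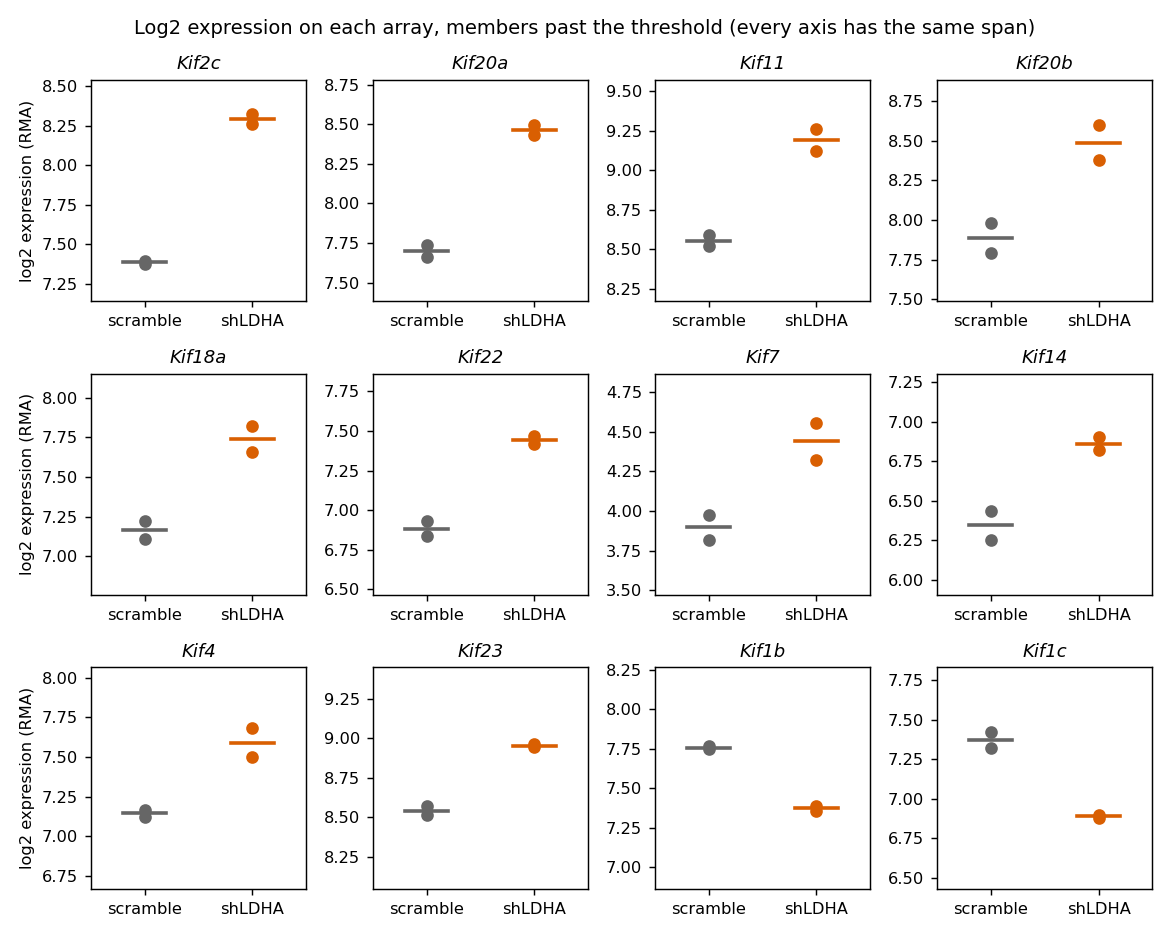
Log2 expression (RMA, vertical axis, same span in each panel) on each array for the 12 kinesin genes past the threshold, with points for arrays and lines for group means. In all 12 panels the points of the groups do not overlap, with shLDHA above scramble in 10 and below it in Kif1b and Kif1c. Choosing genes by the test favours this. Of all genes, both shLDHA arrays lay above both scramble arrays in 26.2% and below them in 24.0%.

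How firmly these calls stand depends on all 4 arrays. Leaving out an array cut the residual degrees of freedom from 2 to 1. Without scramble replicate 1, 6 of the 9 mitotic kinesins still passed, and the calls of Kif4, Kif18a and Kif23 were lost. Without scramble replicate 2 or without shLDHA replicate 1 only 2 passed, Kif2c and Kif20a, and without shLDHA replicate 2 the 3 left were Kif2c, Kif20a and Kif11. Kif2c and Kif20a passed in all 12 alternative settings, with adjusted p at most 0.0284 and 0.0467. The list's median log2 change moved less, from 0.48 to 0.61 without 1 array. With the replicate number as a block, which also left 1 residual degree of freedom, Kif4 (adjusted p = 0.0837) and Kif23 (0.0764) were lost. The other 7 remained, and the log2 changes were the same as without the block. In the other direction, Kif15 and Kif18b passed when only brighter genes were tested or when the variance prior followed the intensity.

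Transport kinesins showed no common rise. Both that fell belong to family 3. Kif1c, which carries dense core vesicles and integrin-bearing vesicles, read 7.32 and 7.42 in scramble and 6.90 and 6.88 in shLDHA, 1.40-fold lower (log2 change -0.48, SE 0.09, limma adjusted p = 0.0265). Kif1b, which carries mitochondria and synaptic vesicle precursors, read 7.75 and 7.76 in scramble and 7.39 and 7.35 in shLDHA, 1.30-fold lower (log2 change -0.38, SE 0.08, limma adjusted p = 0.0447). Both genes lay lower on each shLDHA array than on either scramble array, which their choice by the test favours. Neither call held without scramble replicate 1 (adjusted p = 0.0659 for Kif1c and 0.153 for Kif1b), scramble replicate 2 (0.123 and 0.174), shLDHA replicate 1 (0.101 and 0.129) or shLDHA replicate 2 (0.115 and 0.162), nor with the replicate number as a block (0.0567 and 0.0897). Over all 12 alternatives the log2 changes ran from -0.54 to -0.43 for Kif1c and from -0.40 to -0.36 for Kif1b.

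The remaining members of family 3 varied in direction. Kif13a, a motor of recycling endosomes, read 6.42 and 6.42 in scramble and 6.67 and 6.67 in shLDHA. Its groups did not overlap, but the log2 change of 0.26 (SE 0.08) did not pass (limma adjusted p = 0.129). When only brighter genes were tested its adjusted p was 0.0382. Kif16b, a motor of early endosomes, changed by -0.14 (SE 0.08), Kif13b by -0.01 (SE 0.09) and the dim neuronal Kif1a by 0.10 (SE 0.08), none of which passed.

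Conventional kinesin, family 1, is a pair of heavy chains with light chains that bind cargo. Kif5b, the heavy chain found in most tissues, read 9.97 and 9.97 in scramble and 9.89 and 9.70 in shLDHA. The shLDHA arrays were lower and differed from each other by more than the scramble arrays did, and the log2 change of -0.17 (SE 0.10) did not pass (limma adjusted p = 0.382). Its neuronal relatives Kif5a (-0.11, SE 0.08) and Kif5c (0.46, SE 0.14, adjusted p = 0.131) were dim and did not pass. Kif5c read 3.02 and 3.28 in scramble and 3.43 and 3.78 in shLDHA, groups that do not overlap at a level where array signals are compressed.

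Kif3a and Kif3b form the heterotrimeric motor of family 2 with Kifap3, which drives transport within cilia. They had changes of opposite sign that did not pass. Kif3a read 7.51 and 7.52 in scramble and 7.64 and 7.72 in shLDHA (log2 change 0.16, SE 0.08, limma adjusted p = 0.330). Kif3b read 6.27 and 6.59 in scramble and 6.17 and 6.08 in shLDHA (log2 change -0.30, SE 0.12, limma adjusted p = 0.217). For Kif3b the scramble arrays were further apart than the nearest arrays of the groups. Kif3c changed by -0.12 (SE 0.09) and the dim Kif17 by -0.11 (SE 0.10), and neither passed. A further probe that names Kif3c together with another gene changed by -0.02.

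Of the 6 kinesins of the cilium and Hedgehog signalling, 1 passed, beside 6.36% of all genes. Kif7, which acts at the tip of the primary cilium on the Gli factors of the Hedgehog pathway, read 3.98 and 3.82 in scramble and 4.33 and 4.55 in shLDHA, 1.46-fold higher (limma adjusted p = 0.0412). Its scramble mean of 3.90 was under the olfactory receptor limit of 4.24, where a fold can understate a change. A second Kif7 probe read between 3.55 and 3.58 on all 4 arrays and changed by 0.00, and with the mean of both probes the log2 change was 0.27 (adjusted p = 0.137). The Kif7 call was also lost with the replicate number as a block (0.0789) and without scramble replicate 1 (0.0653), scramble replicate 2 (0.148), shLDHA replicate 1 (0.0694) or shLDHA replicate 2 (0.157).

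Kif24, which holds back the growth of cilia from centrioles, read 4.88 and 4.74 in scramble and 5.17 and 5.19 in shLDHA. Its shLDHA arrays were both higher, and the log2 change of 0.37 (SE 0.09) had a limma adjusted p of 0.0637. The dim Kif27, a relative of Kif7, changed by -0.31 with an SE of 0.16, since 1 scramble array (4.17) stood above the other (3.67) and above 3.61 and 3.62 in shLDHA. A second Kif27 probe changed by -0.01. Kif6, Kif9 and Kif19a, kinesins of motile cilia, were dim with overlapping arrays and changes from 0.03 to 0.12.

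None of the 6 other kinesins passed the limma test. At an unadjusted p under 0.05, 2 were higher, beside 11.3% of all genes. These were Kif21b and Kif26b. Kif21b, which slows microtubule growth in neurons and lymphocytes, read 4.40 and 4.24 in scramble and 4.72 and 4.74 in shLDHA (log2 change 0.41, SE 0.09, limma adjusted p = 0.0540). Kif26b, a kinesin with an atypical motor domain, read 4.43 and 4.45 in scramble and 4.75 and 4.68 in shLDHA (log2 change 0.27, SE 0.08, limma adjusted p = 0.119). In both genes the arrays of the groups did not overlap, at levels near the floor. When only brighter genes were tested, Kif21b, Kif24 and Kif26b passed. Kif21a, the relative of Kif21b, changed by -0.04 and the dim Kif12 and Kif26a by -0.05 and 0.08.

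Counted together, 10 of the 38 kinesin genes were higher and 2 lower by the limma test, and 12 of the 38 were dim. All 12 that passed were among the 26 that were not dim in at least 1 group. Kif7 was among the 26 only through the group where it was higher, with means of 3.90 in scramble and 4.44 in shLDHA. Among all genes that met the same limit in their brighter group, 6.39% were higher and 5.78% lower.

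Among 5 kinesin motors that carry another symbol, 1 rose and 1 fell, beside 3.37% and 2.99% of all genes. Cenpe, the mitotic motor that brings chromosomes to the spindle equator, read 8.66 and 8.63 in scramble and 9.17 and 9.01 in shLDHA (log2 change 0.44, SE 0.09, limma adjusted p = 0.0419). Kifc1, a minus-end motor that focuses spindle poles, changed by 0.39 (SE 0.12) and did not pass. Its near-identical copy Kifc5b may share its signal. The minus-end motor Kifc3, which acts at cell junctions, fell by 0.50 on the log2 scale (SE 0.09, limma adjusted p = 0.0332). Kifc2 (-0.08, SE 0.10) and Stard9 (-0.44, SE 0.15) did not pass, and the list median was -0.08.

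Of 22 tested partners of mitotic kinesins, 12 were higher and 0 lower and 10 did not pass, beside 3.37% higher and 2.99% lower of all genes. Their median log2 change was 0.44. In 20 of the 22 both shLDHA arrays lay above both scramble arrays, as they did for 26.2% of all genes. The 4 with the smallest p were Hmmr (0.75, SE 0.09), a spindle protein, Cit (0.73, SE 0.09), the citron kinase that Kif14 binds, Incenp (0.69, SE 0.09), the scaffold of the passenger complex that Kif20a carries, and Tacc3 (0.73, SE 0.09), which stabilises spindle microtubules. Racgap1, the partner of Kif23, also rose, by 0.58 (SE 0.08). Prc1, which binds Kif4 and Kif14 at the central spindle, changed by 0.04 (SE 0.08, limma adjusted p = 0.830) with overlapping arrays, and Mapre1 (0.01), Ckap5 (0.10) and Anln (0.11) did not pass either. As this list was chosen with earlier results of these arrays known, its direction is not independent of them.

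**Figure D3:**
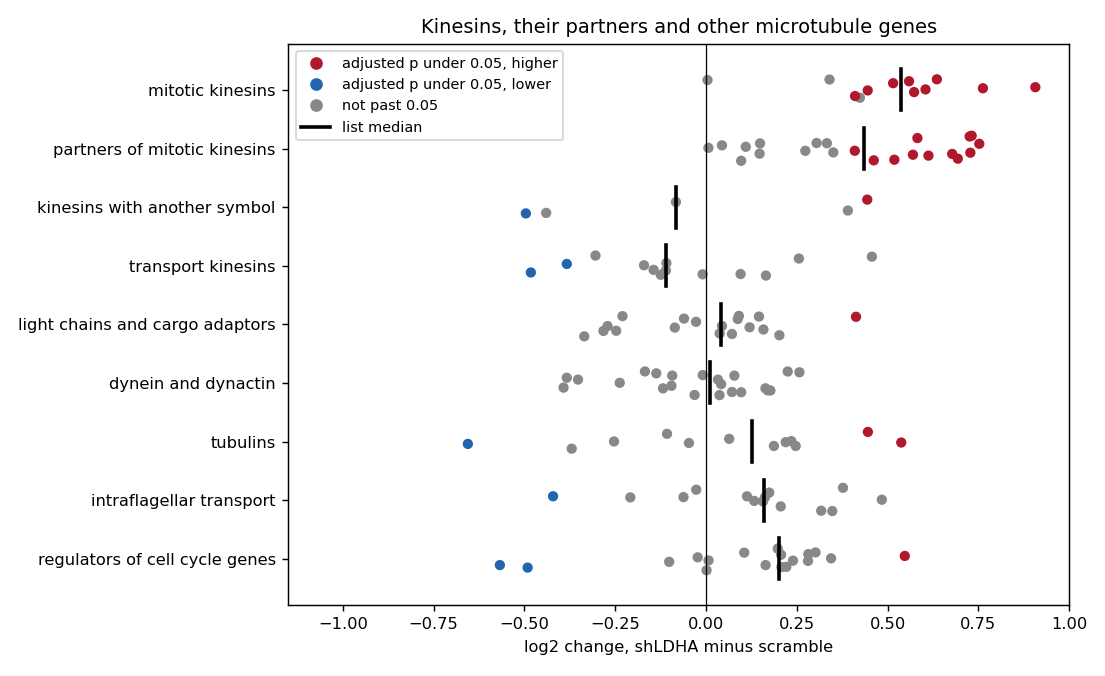
Log2 change (shLDHA minus scramble, horizontal axis) of each tested gene in 9 lists of motors and related genes, 1 point per gene with random vertical offset, red or blue where the adjusted p was under 0.05, with a black line at the list median. Medians of the mitotic kinesins (0.54) and their partners (0.44) lie furthest to the right, and the transport kinesins (-0.11) lie left of 0.

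Kinesin light chains and cargo adaptors attach the motors to their loads. Of 18 such genes, 1 rose and 0 fell, a share near the 6.36% of all genes that passed, with a median log2 change of 0.04. At an unadjusted p under 0.05, 2 were higher and 4 lower, beside 11.3% and 10.2% of all genes. The gene that rose was Rab3a (0.41, SE 0.08, limma adjusted p = 0.0362), a GTPase on secretory vesicles carried by Kif1a and Kif1b. Trak1, which links Kif5 to mitochondria, changed by -0.34 (SE 0.09, adjusted p = 0.0871), Mapk8ip1 by -0.25 and Plekhm2, which links Kif5 to lysosomes, by -0.27, none of which passed.

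Dynein, the motor that runs the opposite way, had no gene past the threshold. Of 22 genes of dynein, dynactin and their regulators, 0 were higher and 0 lower by limma, and at an unadjusted p under 0.05 there were 1 higher and 4 lower of 22, beside 11.3% and 10.2% of all genes. The 4 with the smallest p were Dync1li1 (-0.38), Ndel1 (-0.39), Pafah1b1 (-0.35) and Dync1li2 (-0.24), with adjusted p from 0.0543 to 0.162. In 7 of the 22 both shLDHA arrays lay below both scramble arrays, as they did for 24.0% of all genes. These 4 were among the 7, which their choice by small p favours.

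The tubulins, the track itself, were mixed. Of 12 tested, 2 rose and 1 fell, beside 3.37% and 2.99% of all genes. Tubb5 went from 10.77 and 10.78 in scramble to 11.28 and 11.34 in shLDHA (log2 change 0.54, SE 0.08, limma adjusted p = 0.0168), and Tubb4a rose by 0.45 (SE 0.09). Tuba1a fell by 0.66 on the log2 scale (SE 0.11, limma adjusted p = 0.0253), and Tubb6 changed by -0.37 without passing. Tubulin genes are close in sequence, so their probes may share signal.

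Of 14 genes of intraflagellar transport, the cargo of the Kif3 motor, 1 fell and 0 rose, a share near the 6.36% of all genes that passed. In 10 both shLDHA arrays lay above both scramble arrays and in 2 below them, beside 26.2% and 24.0% of all genes. Ift57 fell by 0.42 on the log2 scale (SE 0.08, limma adjusted p = 0.0351). Ift74 (0.48, adjusted p = 0.0515), Ift122 (0.38) and Ift88 (0.35) did not pass, and the list median was 0.16.

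Among 18 regulators of cell cycle genes, including the factors that act through the CHR, 1 rose and 2 fell, beside 3.37% and 2.99% of all genes. Both shLDHA arrays lay above both scramble arrays in 11 and below them in 4, beside 26.2% and 24.0% of all genes. The repressor genes E2f5 and E2f4 fell by 0.57 and by 0.49 on the log2 scale (SE 0.08 each, limma adjusted p = 0.0161 and 0.0216). Tfdp2, which encodes a dimer partner of E2F factors, rose by 0.55 (SE 0.08, limma adjusted p = 0.0161). Lin37, a subunit of the complex that binds the CHR, changed by 0.34 (SE 0.09) and Foxm1, an activator of mitotic genes, by 0.30 (SE 0.09), neither of which passed (adjusted p = 0.0887 and 0.0998). The list median was 0.20.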

How the data were processed

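The deposited values were log2 expression per probe; the submitters' processing notes name RMA and R 3.4.0. Annotation version and further settings are not given in the sources used here. Values ran from 1.23 to 12.91 over 41345 probes. A platform annotation gave 1 symbol for 23521 probes, several for 1814 and none for 16010; 23328 of the first had a RefSeq gene identifier, which changed 0 symbols. Groups and replicate numbers came from the sample titles. All sample columns were used (0 left out).

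Testing shLDHA against scramble used limma 3.58.1 under R 4.3.3 (lmFit, eBayes, two-sided, no covariate, no filter) over 22180 genes, with 2 residual and 4.52 prior degrees of freedom and a median SE of 0.09. SDs are over 2 arrays. Arrays have no read depth; precision is limited by their number. In 10 simulated data sets of 22180 genes, 200 of them were changed. Of changes of 0.5 on the log2 scale 12.5% were recovered, of changes of 1 92.2% and of changes of 2 99.5%, and 5.34% of calls were false. The simulated noise followed the variance model of the fit, so a false share near the 5% aimed at was built in. It does not measure false calls in the real data.

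Kinesins and lists were chosen with earlier results of these data known. Every kinesin could be named, and per-array values were given for those past the threshold and for Kif3a, Kif3b, Kif5b, Kif11 and Kif20a; those of Kif4-ps, Kif5c, Kif13a, Kif15, Kif18b, Kif21b, Kif24, Kif26b and Kif27 were added after their values were seen. Up to 4 genes with the smallest p were named from each other list; further names were chosen after their values were seen. Alternatives were a replicate block, a filter on dim genes, the mean of probes, every probe, repeated quantile normalization, median centring, a trended or robust prior (statmod 1.5.0) and leaving out each array. Promoters came from a RefSeq table of GRCm38.p6 matched by symbol for 31 of the 38 genes; no probe positions are printed, since the platform annotation's build is not stated in the sources used here. Proteins were not compared. Figures were drawn with matplotlib 3.10.9.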

Additional observations from a re-analysis of the deposited data

How the results depend on the processing

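The signs of all 12 called kinesins were the same in each of the 12 alternatives, and 102 of their values kept the call while 42 lost it, mostly without 1 array. When only genes at or above the median level were tested, 16 kinesins were higher, 2 lower and 1 transport kinesin, Kif13a, higher; this refit changed both the adjustment and the variance prior, and which of them moved the counts was not tested. Leaving out 1 array gave 2 to 6 higher kinesins, 2 to 6 higher mitotic kinesins and 0 lower kinesins by limma (2 to 4 lower at an unadjusted p under 0.05), with 1 residual degree of freedom and the lone sample of an arm assumed to vary like the other group. With the replicate number as a block, which also left 1 residual degree of freedom, 7 kinesins were higher, all of them mitotic. In that fit 0 were lower (2 at an unadjusted p under 0.05). The replicate number marks no shared source in the labels, and deviations of same-numbered arrays correlated at r = -0.03 over 22180 genes. Whether same-numbered arrays shared a source that touched only part of the genes was not tested. With repeated quantile normalization, median centring and a robust prior, the same 12 genes passed. A robust or trended prior left 9 and 11 mitotic calls. The median log2 change ran from 0.48 to 0.61 for mitotic and from -0.14 to -0.06 for transport kinesins. Signs changed in at least 1 alternative for Kif2b, Kif4-ps, Kif6, Kif9, Kif13b and Kif21a, none of which passed. With 2 arrays a group, changes of 0.5 on the log2 scale were mostly missed on simulated data with 200 changed genes. In the real data 1410 genes passed, so the recovery and the share of false calls there may differ and were not measured. A member that did not pass is still not shown to be unchanged.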
